A study of Mus musculus with 8 samples.

Results

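The 9 genes described here regulate microtubules and encode the severing enzymes (Spast, Katna1), the tubulin-modifying enzymes (Ttl, Hdac6), the stathmins (Stmn1, Stmn2, Stmn3, Stmn4) and Map1b. They were taken as every probe whose gene name on the array is one of these symbols. This gave 13 of 55681 probes and 9 of the 15341 genes measured in nerve. Microtubules are polymers of alpha- and beta-tubulin that carry transport along the axon, and their stability is set by enzymes and binding proteins. Spastin and katanin cut microtubules along their length. Tubulin tyrosine ligase restores the terminal tyrosine of alpha-tubulin, and HDAC6 removes its acetyl group, a mark of long-lived microtubules. Stathmins bind free tubulin and promote disassembly, while MAP1B binds the lattice in growing axons.

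Sciatic nerves of male SOD1G93A transgenic mice, a model of amyotrophic lateral sclerosis with a transgene for mutant human SOD1, were compared with nerves of male wild-type mice, both aged 60 days, with 4 arrays each. The series title calls this age presymptomatic. The strain and the number of animals behind a sample are not given in the sources used here, the transgene's promoter likewise, and the samples of a group are described as biological replicates. Nerve RNA carried Cy3 on each 2-colour array. Cy5 carried 1 common pool of RNA from heart, liver and kidney of newborn mice of both genotypes, with no dye swap, so dye and RNA source cannot be told apart in a nerve-over-pool ratio. All values below are log2 ratios of nerve to pool after loess scaling within each array, unless an intensity or another scaling is named. A ratio of 0 is therefore the usual ratio of that array's spots at that brightness, and not equal intensity in both dyes. On wild-type replicate 1, for example, Spast had intensities of 930 in Cy3 and 423 in Cy5 at a ratio of -0.0021. Differences are SOD1G93A minus wild-type.

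The nerve signal cleared background clearly on 35.5% to 41.7% of an array's spots, and 0 spots reached saturation. The arrays numbered 1 stood apart on the first principal component, with SOD1G93A replicate 1 at -30.3 and wild-type replicate 1 at 33.7, against -10.9 to 14.7 for the other arrays. The arrays of a genotype shared the first number of their slide position, so position and genotype cannot be told apart. All 11 Schwann cell markers passed the filter on dim probes. Of 14 neuronal markers 8 passed, among them the neurofilament genes Nefl, Nefm and Nefh, while the neuronal nuclear gene Rbfox3 and Syt1, Elavl3, Elavl4, Chat and Isl1 were well above background on 0 arrays. All 13 probes of the 9 genes were well above background in both dyes on all 8 arrays, so no member was lost to the filter. In these bulk samples, fewer cells of a type and less RNA per cell cannot be told apart.

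Each probe is 60 bases long, and a stretch of 30 bases from the deposited probe sequence, 5′ to 3′, is shown here for those on which the results turn: Spast and Ttl, which separated the genotypes, the overlapping probes of Hdac6, the disagreeing probes of Stmn1, and Stmn2. Capitals mark AATAAA, the hexamer of most polyadenylation signals, where the probe holds it.
Spast A_51_P348652: gctttggctacaggaacccagacttcgttt
Ttl A_51_P208697: agcatcaaataagcatgagagagagaaaaa
Hdac6 A_55_P1992655: gtcagcatatttAATAAAgttggagttgct
Hdac6 A_55_P2009792: caggtcagcatatttAATAAAgttggagtt
Stmn1 A_55_P2043862: tcctttactttccctcctgacagatagtct
Stmn1 A_55_P2068663: acttgaatggttAATAAActgcacagtgct
Stmn2 A_55_P2068673: caagctgtgatgAATAAAgaattggagttc

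AATAAA was present in 4 of the 13 probes, and in 10.1% of all 55681 probes of the same length. Its reverse complement TTTATT was present in 0 of the 13 and in 3.7% of all probes. The 4 were both Hdac6 probes, the distal Stmn1 probe and the Stmn2 probe. The Hdac6 probes share 48 bases and the Stmn4 probes share 44, so neither pair gives independent readings. The Stmn1 probes start 340 bases apart and the Map1b probes 1903 bases apart.

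Spast, which encodes spastin and is mutated in hereditary spastic paraplegia, had the smallest p between genotypes among the 9 genes on loess-normalized ratios: its 4 SOD1G93A arrays all exceeded the 4 wild-type arrays, and the means differed 1.31-fold. Its probe lies at chr17:74787677-74787736 on mm9, plus strand, in transcript NM_016962. The ratios were 0.33, 0.33, 0.31 and 0.30 in SOD1G93A nerves, against -0.0021, -0.06, -0.09 and -0.12 in wild-type nerves. The SOD1G93A values lay within a narrow band that did not overlap the wild-type values. The means were 0.32 ± 0.01 in SOD1G93A and -0.07 ± 0.05 in wild-type nerves (SD, n = 4 each). The difference of 0.39 ± 0.07 (SE) had a 95% interval of 0.23 to 0.54. It ranked 52nd of 15341 genes by p and was not called (limma with Benjamini-Hochberg adjustment, adjusted p = 0.0777). Without the arrays numbered 1 the difference was 0.40 and was called (limma adjusted p = 0.026). It was also called without SOD1G93A replicate 1 alone (adjusted p = 0.0289) and with arrays weighted by their quality (adjusted p = 0.00792), which gave SOD1G93A replicate 1 the lowest weight, 0.169. These settings called 233, 179 and 418 of all genes, in that order, against 25 on all arrays at equal weight. When any single array other than SOD1G93A replicate 1 was left out, the adjusted p (limma) was 0.126 to 0.246 for Spast. With median centring in place of loess its genotypes overlapped, through SOD1G93A replicate 1 at -0.052 and wild-type replicate 1 at 0.40, and the difference was 0.34 ± 0.20 (SE, limma adjusted p = 1).

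Ttl, the tubulin tyrosine ligase gene, showed the same lack of overlap. Its probe lies at chr2:128919412-128919471, plus strand, in transcript NM_027192. The ratios were 1.60, 1.34, 1.36 and 1.28 in SOD1G93A nerves, against 0.68, 1.02, 0.90 and 0.97 in wild-type nerves. The highest SOD1G93A and the lowest wild-type value were those of the arrays numbered 1, and the genotypes did not overlap without them. Nor did they with median centring, at 1.29 to 1.58 in SOD1G93A nerves and 0.94 to 1.07 in wild-type nerves. The difference was 0.50 ± 0.11 (SE), or 1.42-fold, with a 95% interval of 0.27 to 0.74 (limma adjusted p = 0.117). It was 0.36 on the 6 arrays numbered 2 to 4 (adjusted p = 0.0549), and it was called with array weights, at 0.41 (adjusted p = 0.0211). Array weights called 418 of all genes, against 25 at equal weight.

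Over the 9 genes 0 were called at an adjusted p under 0.05 by limma, in a comparison that called 0.163% of all genes, 0.0717% as higher and 0.0913% as lower. An unadjusted p under 0.05 was given to 2 of the 9, both higher, beside 11.4% of all genes and 4.83% in the higher direction. Spast and Ttl were the 2 of 9 whose genotypes did not overlap, both higher in SOD1G93A, beside 8% of all genes in either direction, 3.66% in the higher and 4.33% in the lower direction. Counted by probe, 2 of 13 did not overlap and 0 were called, beside 7.54% and 0.171% of the 19836 kept probes. Of the 9 differences 7 were positive and 2 negative, and 45.3% of all genes were positive. The 7 include Stmn1 and Stmn2, whose signs turned in 5 and 2 of 23 processing alternatives. The median was 0.19 over the 9 genes and -0.019 over all genes.

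**Figure D1:**
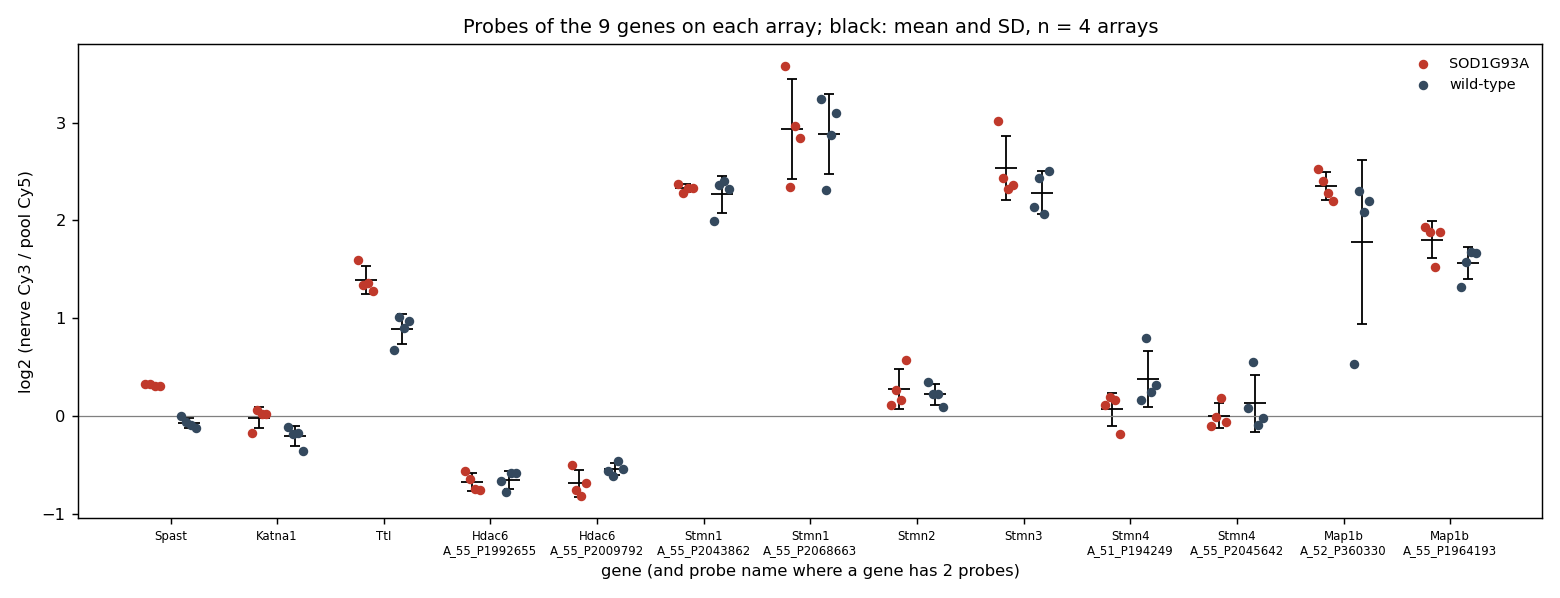
Log2 ratio of nerve (Cy3) to pool (Cy5) for the 13 probes on each array, SOD1G93A in red and wild-type in dark blue, with black bars for the mean and SD of 4 arrays. Spast and Ttl show no overlap between genotypes, and wild-type replicate 1 lies far below the other arrays at 0.54 on the Map1b probe A_52_P360330.

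Each dye was also examined alone, since the pool is the same RNA on every array. In Cy3, scaled by quantiles, Spast differed by 0.44 ± 0.09 and Ttl by 0.43 ± 0.11 (SE), with no overlap for either (limma adjusted p = 0.0931 and 0.163). In the pool's Cy5 channel the Spast difference was 0.03 ± 0.05 (SE). The Cy5 values of Ttl differed by -0.11 ± 0.04 (SE) and did not overlap, being lower on SOD1G93A arrays (limma unadjusted p = 0.0241, adjusted p = 0.286). For Ttl the nerve and pool channels thus differed in opposite directions, though neither difference was called. The channels were scaled by quantiles and the ratio by loess, and the part of each channel in the Ttl ratio was not tested. For Hdac6 the Cy3 difference was -0.026 ± 0.10 and the Cy5 difference 0.091 ± 0.045 (SE), and for Stmn2 the Cy5 difference was -0.13 ± 0.05 (SE, limma adjusted p = 0.275). Katna1 did not overlap in Cy3 either, at 0.16 ± 0.08 (SE). Among all genes 5.04% were higher without overlap in Cy3, and no such share is given for Cy5.

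Katna1 encodes p60, the cutting subunit of katanin, and its probe lies at chr10:7482737-7482796, plus strand, in transcript NM_011835. The ratios were -0.18, 0.07, 0.03 and 0.02 in SOD1G93A nerves, against -0.11, -0.18, -0.17 and -0.35 in wild-type nerves. SOD1G93A replicate 1 lay among the wild-type values and the other 3 above all of them. The difference was 0.19 ± 0.09 (SE), with a 95% interval of -0.0077 to 0.39 (limma adjusted p = 0.454), and 0.28 on the 6 arrays numbered 2 to 4 (adjusted p = 0.137).

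Hdac6 was the member with the lowest ratio to the pool, with a mean of -0.61 over the 8 arrays. This is relative to other genes after loess, and without that scaling its Cy3 intensity exceeded its Cy5 intensity on 6 of the 8 arrays. The brighter probe, at chrX:7507261-7507320 on the minus strand in transcript NM_010413, gave -0.50, -0.75, -0.82 and -0.68 in SOD1G93A nerves, against -0.56, -0.61, -0.46 and -0.54 in wild-type nerves. Here too SOD1G93A replicate 1 lay among the wild-type arrays and the other 3 lay apart, below them. The difference was -0.14 ± 0.09 (SE, limma adjusted p = 0.567), and the overlapping probe gave -0.024 ± 0.08 (SE), with a 95% interval of -0.21 to 0.16.

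On the 6 arrays numbered 2 to 4 the genotypes did not overlap for 5 of the 9 genes. Spast, Katna1 and Ttl were higher in SOD1G93A, and Hdac6 and Stmn4 lower. Among all genes this held for 24%, 10.9% in the higher and 13.1% in the lower direction. Of the 5, Spast was called on these arrays, where 1.52% of all genes were called.

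**Figure D2:**
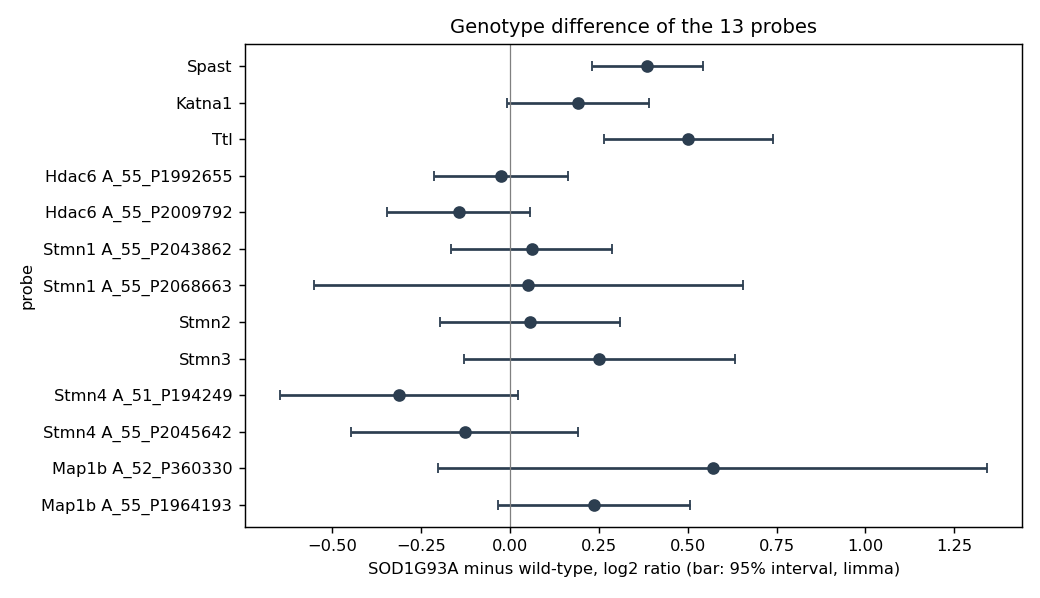
Difference between SOD1G93A and wild-type nerves in log2 ratio for the 13 probes, with 95% intervals from limma. The intervals of Spast and Ttl lie above 0, and the others include 0.

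The stathmins formed 2 groups by their ratio to the pool. Stmn1, found in many dividing and developing cells, and Stmn3, a relative that is mainly neuronal, were far higher in nerve than in the pool, by means of 2.91 and 2.41. Stmn2, the neuronal SCG10 gene of growth cones and regenerating axons, and Stmn4, another neuronal relative, averaged 0.25 and 0.23. None of the 4 was called between genotypes (limma, 0 with an unadjusted p under 0.05).

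The Stmn1 probes disagreed on single arrays. The brighter, distal probe, at chr4:134029695-134029754 on the plus strand in transcript NM_019641, gave 3.58, 2.34, 2.96 and 2.84 in SOD1G93A nerves, against 3.24, 2.31, 2.87 and 3.10 in wild-type nerves. The proximal probe, at chr4:134029355-134029414, gave 2.37, 2.28, 2.33 and 2.34 in SOD1G93A nerves, against 1.99, 2.36, 2.40 and 2.33 in wild-type nerves. The distal probe spread widely within each genotype, while 7 of the 8 proximal values lay close together. The largest gap between both probes on 1 array was 1.25. The differences were 0.05 ± 0.27 (distal) and 0.06 ± 0.10 (proximal) (SE), and the proximal probe's 95% interval was -0.17 to 0.29. The distal probe's sign turned in 5 of 23 alternatives, so no direction is given.

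The spread of the distal Stmn1 probe was also present in the pool. Its Cy5 intensity ranged between 1750 and 5281 over the 8 arrays, although the pool was the same RNA, and that of the proximal probe between 4640 and 5903. The SD of the quantile-scaled log2 Cy5 value was 0.486 for the distal and 0.136 for the proximal probe, against a median of 0.0719 over all kept probes. The distal probe exceeded 99.8% of them. Their part in the Stmn1 ratios was not tested.

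Stmn2, with 1 probe at chr3:8561545-8561604, plus strand, in transcript NM_025285, gave 0.11, 0.27, 0.17 and 0.57 in SOD1G93A nerves, against 0.35, 0.23, 0.23 and 0.09 in wild-type nerves. The genotypes overlapped throughout, with the highest value on SOD1G93A replicate 4. The difference was 0.06 ± 0.11 (SE), with a 95% interval of -0.20 to 0.31 (limma adjusted p = 0.871). It was -0.040 without SOD1G93A replicate 4 and -0.042 in the Cy3 channel alone. Neuronal markers as a list gave 1 member higher and 7 lower of 8 tested, 0 called and 0 with an unadjusted p under 0.05 (limma), with a median of -0.09.

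Stmn3, at chr2:181041396-181041455 on the minus strand in transcript NM_009133, gave 3.02, 2.44, 2.32 and 2.36 in SOD1G93A nerves, against 2.14, 2.43, 2.06 and 2.50 in wild-type nerves. Only SOD1G93A replicate 1 lay above the highest wild-type array. The difference was 0.25 ± 0.17 (SE, limma adjusted p = 0.603), and 0.090 without that array.

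Stmn4 had the larger of the 2 negative differences. Its brighter probe, at chr14:66980442-66980501 on the plus strand in transcript NM_019675, gave 0.11, 0.19, 0.16 and -0.18 in SOD1G93A nerves, against 0.17, 0.80, 0.24 and 0.32 in wild-type nerves. The genotypes overlapped only through wild-type replicate 1, and wild-type replicate 2 was the highest array. The difference was -0.31 ± 0.15 (SE), with a 95% interval of -0.65 to 0.023 (limma adjusted p = 0.469), and -0.17 without wild-type replicate 2. The overlapping probe gave -0.13 ± 0.14 (SE). Both were dim, with Cy3 intensities of 116 to 279 over the array's local background.

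Map1b, whose product binds microtubules in growing axons, was measured by 2 probes in transcript NM_008634 on the minus strand. The brighter, at chr13:100192506-100192565, gave 2.52, 2.40, 2.28 and 2.20 in SOD1G93A nerves, against 0.54, 2.30, 2.08 and 2.20 in wild-type nerves. Wild-type replicate 1 was the single low array, with a Cy3 intensity of 394 against 896 to 1275 on the other arrays, while the pool's Cy5 intensity was between 90.5 and 126 on all 8. The difference of 0.57 ± 0.35 (SE, limma adjusted p = 0.561) was 0.16 without that array. The second probe, at chr13:100194409-100194468, gave 1.93, 1.88, 1.52 and 1.88 in SOD1G93A nerves, against 1.32, 1.58, 1.68 and 1.67 in wild-type nerves. There wild-type replicate 1 was also the lowest array, by a smaller margin. The difference was 0.24 ± 0.12 (SE), with a 95% interval of -0.03 to 0.51 (limma adjusted p = 0.513). Wild-type replicate 1 also carried the highest summed Cy3 intensity of 8 skeletal muscle markers, 78999, against 1401 to 1783 on SOD1G93A arrays. Wild-type replicate 2 came next at 20763, and wild-type replicates 3 and 4 were at 1870 and 2252. The Map1b ratios of wild-type replicate 2 were 2.30 on the brighter probe, the highest of the wild-type arrays, and 1.58 on the second. The part of muscle RNA in these values was not tested.

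**Figure D3:**
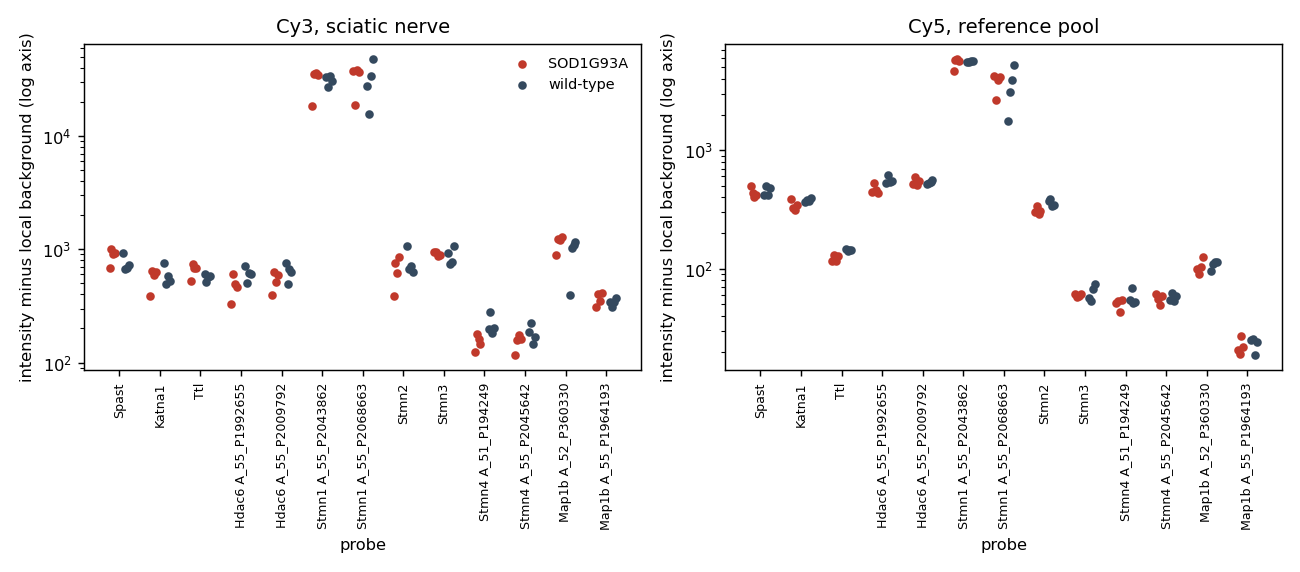
Cy3 (nerve, left) and Cy5 (pool, right) spot intensity minus local background for the 13 probes on each array, on log axes, SOD1G93A in red and wild-type in dark blue. The distal Stmn1 probe A_55_P2068663 spreads between 1750 and 5281 in the pool channel, and wild-type replicate 1 is low in Cy3 at 394 on the Map1b probe A_52_P360330.

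Ordered by the mean ratio over 8 arrays, Stmn1 (2.91) came first, followed by Stmn3 (2.41), Map1b (2.06), Ttl (1.14), Stmn2 (0.25), Stmn4 (0.23), Spast (0.12), Katna1 (-0.11) and Hdac6 (-0.61). Such ratios compare nerve with the pool for 1 probe at a time and are not levels that rank genes against each other. The means of Stmn1, Stmn3 and Map1b placed them above 98.3%, 97.3% and 96.2% of the 15341 genes, and Hdac6 above 17.8%. Of the 9 genes 7 had a mean ratio above 0, beside 54.4% of all genes, and this count was 7 in all 21 alternatives that give a ratio. The replicate block, trend and array-weight fits cannot change a mean ratio, so they are no check on this count. It describes scaled ratios and not raw intensity. Ttl exceeded Stmn2, Spast exceeded Katna1, and Katna1 exceeded Hdac6 on 8 of 8 arrays. The neighbours Stmn2 and Stmn4 differed by 0.023, and Stmn4 and Spast by 0.10, less than their SDs over the 8 arrays of 0.15 to 0.27. Stmn3 moved most with the processing, to 3.24 with Agilent processed signals, where Stmn1 was at 3.13 and so came second. The pool's intensity for the Stmn3 probe was 53.3 to 73.6, dim beside 748 to 1075 in nerve. First place of Stmn1 also rests on its distal probe, since the proximal probe averaged 2.30, below Stmn3.

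The genes with the ratio pattern most like that of Spast over the 8 arrays were Zdhhc18 (Pearson r = 0.993) and Gramd1b (r = 0.981), with an intergenic transcript probe that is not named here between them. These are the highest of 15325 genes over 8 arrays in 2 genotypes, and describe the arrays only. After removal of the genotype means r was 0.88 for Zdhhc18 and 0.08 for Gramd1b, so the likeness of Gramd1b lay in the genotype difference. Gramd1b was called, at 0.53 ± 0.07 (SE, limma adjusted p = 0.0389), and Zdhhc18, at 0.44 ± 0.07, was not (adjusted p = 0.0624). For Stmn2 the most alike were Pank2 (r = 0.945), Grk6 (r = 0.945) and Nfkb2 (r = 0.928), and r stayed at 0.95 to 0.96 without the genotype means.

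**Figure D4:**
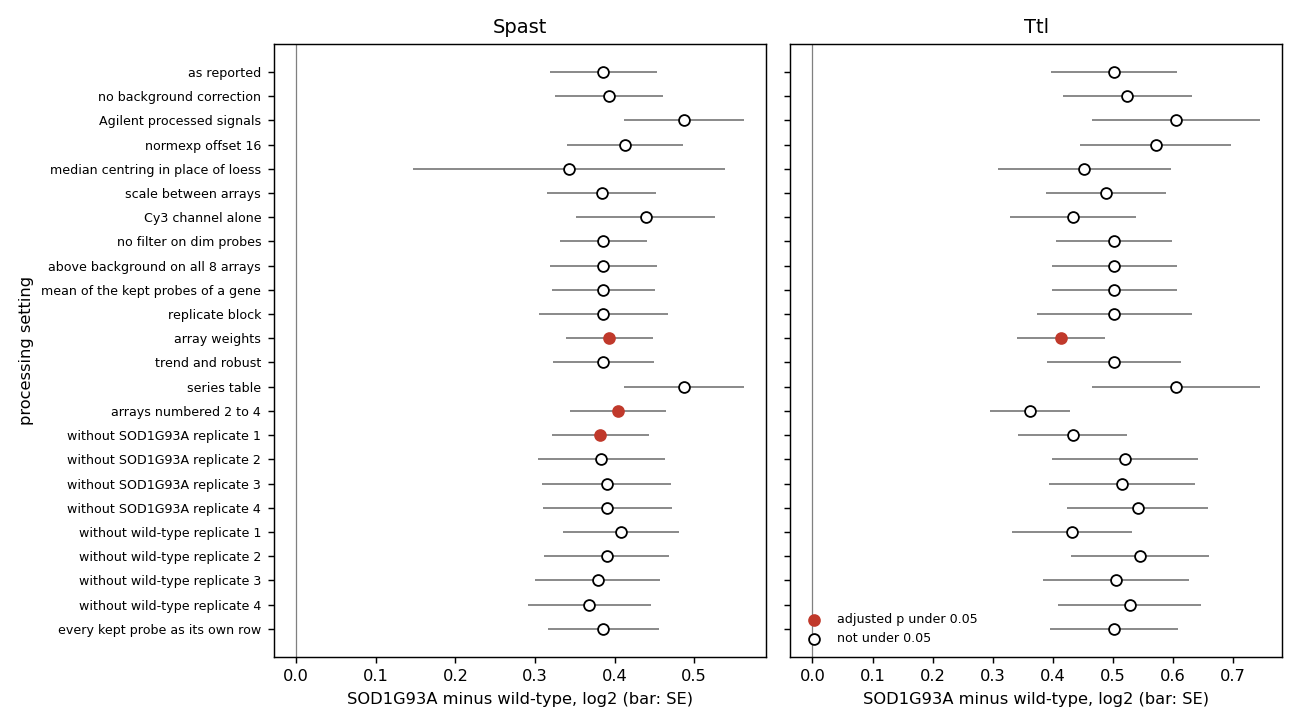
Difference between SOD1G93A and wild-type nerves for Spast (left) and Ttl (right) under each processing setting, in log2 units with bars for the SE, filled where limma's adjusted p was under 0.05. All values are above 0, from 0.34 to 0.49 for Spast and from 0.36 to 0.61 for Ttl, and the calls were 3 for Spast and 1 for Ttl. Several settings, such as the replicate block and the filters on dim probes, left both differences as reported, and the series table repeats Agilent's processed signals.

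Other microtubule regulators and a list of membrane remodelling genes were set beside the 9 genes. Of 77 such genes on the array 55 were tested, 31 higher and 24 lower, with 0 called by limma in either direction. The membrane list gave 11 of the 24 lower genes. At an unadjusted p under 0.05 there were 4 higher and 5 lower, or 9 of 55, beside 11.4% of all genes. Of the 55, the genotypes did not overlap for 1 higher and 4 lower, beside 3.66% and 4.33% of all genes. Their median difference was 0.02, against -0.019 for all genes.

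The severing list had 7 genes tested, 5 higher and 2 lower, with a median of 0.19. Next to Spast by p was Katnal1, a relative of the katanin cutting subunit, at 0.34 ± 0.14 (SE, limma adjusted p = 0.409). It gave 3.36, 3.31, 2.98 and 3.24 in SOD1G93A nerves, against 2.61, 2.75, 2.96 and 3.21 in wild-type nerves, which overlapped.

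Of the genes acting on the tyrosine of alpha-tubulin 3 were tested. Beside Ttl, the carboxypeptidase gene Vash1, which removes the tyrosine, gave 0.03 ± 0.15 (SE), and Ccdc23, now Svbp, the partner of vasohibins, gave 0.06 ± 0.11 (SE). In the acetylation list the deacetylase gene Sirt2 gave 0.05 ± 0.11 and the acetyltransferase gene Atat1 gave -0.04 ± 0.10 (SE), with 1 higher and 2 lower of 3. Of 17 glutamylation and glycylation genes 8 were tested, 5 higher and 3 lower, with a median of 0.04. Agbl3, of the family that trims glutamate chains, gave -0.31 ± 0.12 (SE, limma adjusted p = 0.363), and Ttll6, of the family that adds them, -0.27 ± 0.14 (SE), or -0.16 without SOD1G93A replicate 4.

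Among 11 microtubule-associated protein genes, 8 were higher and 3 lower. Map1s, a short relative of Map1b, gave -0.27, -0.52, -0.21 and -0.50 in SOD1G93A nerves, against 0.36, 0.0050, -0.05 and -0.05 in wild-type nerves. The genotypes did not overlap, and the difference was -0.45 ± 0.12 (SE, limma adjusted p = 0.208). Dclk1, a doublecortin-like kinase gene, gave 0.29 ± 0.09 (SE, adjusted p = 0.286).

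Of 15 genes of microtubule ends 11 were higher and 4 lower. Kif2a, a kinesin gene whose product takes microtubules apart, gave 0.37 ± 0.16, and Macf1, an actin-microtubule crosslinker, -0.25 ± 0.09 (SE, limma adjusted p = 0.416 and 0.356). Neither overlapped between genotypes: Kif2a gave 0.85, 0.23, 0.16 and 0.20 in SOD1G93A nerves, against -0.020, 0.10, -0.18 and 0.079 in wild-type nerves. The margins were small for both genes, with Macf1 at -2.32 on the highest SOD1G93A array and -2.29 on the lowest wild-type array. Without SOD1G93A replicate 1 the Kif2a difference was 0.20.

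A list of membrane remodelling genes, set beside Spast and not all partners of spastin, gave 2 higher and 11 lower of 13 genes, with a median of -0.15. The hereditary spastic paraplegia gene Spg11 gave -0.22 ± 0.08 and Atl1, which encodes the endoplasmic reticulum fusion protein atlastin, -0.25 ± 0.10 (SE, limma adjusted p = 0.332 and 0.41). Spg11 gave -0.0090, 0.058, 0.11 and 0.10 in SOD1G93A nerves, against 0.31, 0.15, 0.33 and 0.34 in wild-type nerves, with no overlap, whereas Atl1 overlapped.

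**Figure D5:**
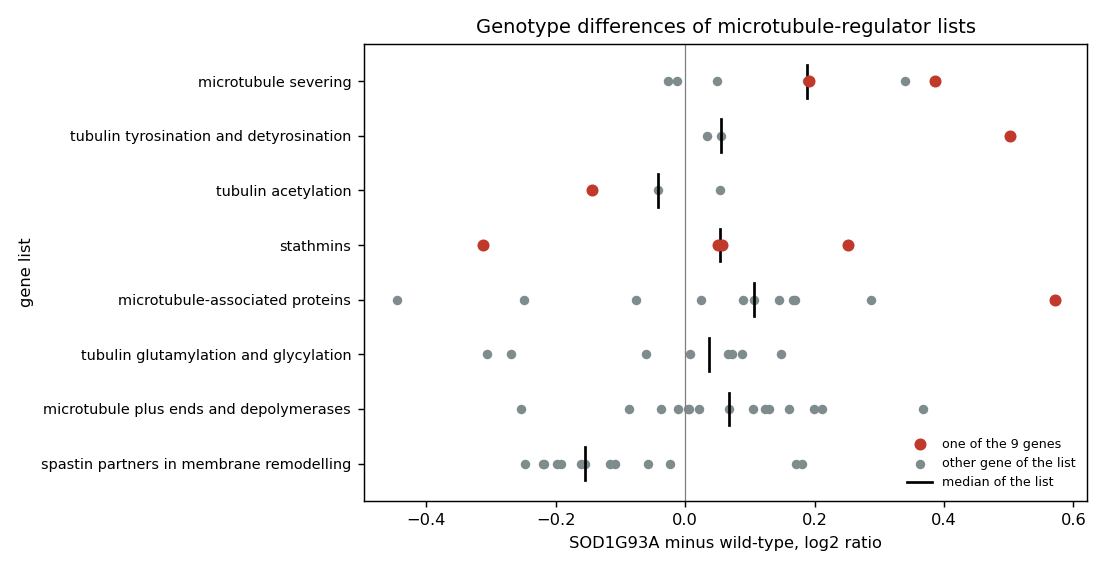
Difference between SOD1G93A and wild-type nerves in log2 ratio for each tested gene of 8 lists. These hold microtubule regulators and, in the list labelled spastin partners, membrane remodelling genes. The 9 genes are in red and other genes in grey, with a black bar at the median of each list. The medians are 0.19 for severing genes and -0.15 for membrane remodelling genes.

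The scores of 2 marker lists, those of dividing and of endothelial cells, did not overlap between the genotypes, like Spast and Ttl. All 6 tested genes of dividing cells were higher in SOD1G93A, between Ccna2 at 0.40 and Mki67 at 0.83, with a list score of 0.04 to 0.60 on SOD1G93A arrays and -0.41 to -0.10 on wild-type arrays. The score is the mean over genes of the log2 ratio minus the gene's mean over the 8 arrays. Their summed Cy3 intensity was 1173 to 2569 on SOD1G93A and 1101 to 1724 on wild-type arrays, and Cdk1, Bub1, Aurkb and Cenpf were above background on 0 arrays. Endothelial markers were lower in 9 of 10, between Robo4 at -0.75 and Kdr at 0.08, with a summed Cy3 intensity of 9728 to 13161 on SOD1G93A and 14790 to 25025 on wild-type arrays. None of the genes of either list was called (limma, with 6 of 6 and 7 of 10 at an unadjusted p under 0.05, beside 11.4% of all genes), and their part in the differences of Spast and Ttl was not tested.

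The scores of the other marker lists overlapped between genotypes, although the summed intensity of skeletal muscle markers, given above, did not, with 8 of 8 lower. That of dividing cells did overlap. Schwann cell markers spanned -0.10 (Cdh19) to 0.30 (Erbb3), neuronal markers -0.43 (Nefh) to 0.17 (Prph), and macrophage markers -0.10 (Itgam) to 0.64 (Emr1). Fibroblast markers spanned -0.47 (Pdgfra) to 0.39 (Col1a1), perineurial markers -0.16 (Tjp1) to 0.17 (Lypd2), and T cell markers -0.20 (Cd3e) to 0.17 (Cd4). Pericyte and smooth muscle markers spanned -1.90 (Cnn1) to 0.08 (Pdgfrb), adipocyte markers -1.76 (Pck1) to -0.12 (Retn), and skeletal muscle markers -2.60 (Tnnc2) to -0.88 (Pvalb).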

How the data were processed

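Spots were quantified with Agilent Feature Extraction, as version 11.5.1.1 per the file headers and 11.0.1.1 per the submitters' processing notes, which also name limma. The deposited scanner files hold linear spot intensity for both dyes, local background and flags. A deposited table of the series gives the scanner's own log10 ratio (Cy5 over Cy3), identical on every spot, and was used with its sign turned. The other deposited columns, such as flags, carry no scale.

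Mean spot intensity was corrected with normexp (offset 50) against the median local background and normalized by loess within arrays, with control spots at no weight and outlier spots left out. Probes had to clear background in Cy3 on 4 or more arrays, which kept 19836 of 55681. A gene was represented by its kept probe of highest Cy3 intensity, and members' other probes come from a fit of all 19836. Genotypes were compared on log2 ratios with lmFit and eBayes (limma 3.58.1, R 4.3.3), 2-sided, with Benjamini-Hochberg adjustment over all rows and calls under 0.05. Figures were drawn with matplotlib 3.10.9. Positions on mm9 come from the files, and accessions of 13 of 13 probes matched the expected symbol in the RefSeq gene table for GRCm38. The p-values measure the spread between the deposited samples.

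The genes and the lists were chosen with earlier results of these data known. Named beside the 9 genes are the 2 genes of smallest p and any called gene of each regulator or membrane list. The extremes of each marker list are named too, and the 3 genes most like Spast, less 1 intergenic transcript, and like Stmn2. Neuronal, Schwann and dividing cell markers are also named where a value stands beside a result, and Vash1 and Atat1 were picked after their values were seen. Samples with the same replicate number did not deviate together (r of -0.16 to 0.10). On simulated data with 15325 genes and 200 changed per run, this comparison recovered 38.8% of log2 changes of 0.5, 83.1% of changes of 1 and 98.6% of changes of 2. False calls averaged 7.2 a run. The simulated noise was normal and drawn for each gene on its own, with no effect shared by the genes of an array. These rates may therefore not hold for the real arrays. The number of arrays limits the precision.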

Additional observations from a re-analysis of the deposited data

Results flagged for a closer look

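In 3 of 26 sets of 4 arrays (13 probes in 2 genotypes) 1 array lay apart from the others by Dixon's test, whose chance rate is about 1 in 20 sets. On the Map1b probe A_52_P360330, wild-type replicate 1 was at 0.54, against 2.08 to 2.30 on the other wild-type arrays. On the Map1b probe A_55_P1964193, SOD1G93A replicate 3 was at 1.52, against 1.88 to 1.93 on the other SOD1G93A arrays. On the Stmn3 probe, SOD1G93A replicate 1 was at 3.02, against 2.32 to 2.44 on the other SOD1G93A arrays.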

How the results depend on the processing

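Spast, Katna1, Ttl, Stmn3 and Map1b stayed positive and Hdac6 and Stmn4 negative in all 23 alternatives, though 0 of the 9 genes was called on all 8 arrays by limma at equal weight. Not all 23 could move a sign. The replicate block, limma's trend and robust options, other filters on dim probes and the fit of every probe left these differences as reported. The mean of a gene's probes did so for genes with 1 probe, and the series table repeated Agilent's processed signals. Array weights called Spast (0.393) and Ttl (0.414), 2 of the 9 genes, and the 6 arrays numbered 2 to 4 called 1, Spast (0.404). Leaving out 1 array at a time gave 0.368 to 0.408 for Spast, called without SOD1G93A replicate 1, with 0 to 1 of the 9 genes called. The adjusted p of Spast ranged from 0.00792 to 1 over all alternatives and that of Ttl from 0.0211 to 1, the highest with median centring in place of loess. Stmn1 turned negative with scaling between arrays (-0.00781), array weights (-0.0604), the 6 arrays (-0.0451) and, of single arrays left out, SOD1G93A replicate 1 (-0.165) or wild-type replicate 2 (-0.138), ranging to 0.249 over arrays left out. Stmn2 turned negative in the Cy3 channel alone (-0.0419) and without SOD1G93A replicate 4 (-0.04), and its highest value without 1 array was 0.112. Of the 9 genes 1, Ttl, was higher without overlap with median centring (1.1% of all genes). Spast, Ttl and Katna1, 3 of the 9, were so with Agilent's signals or the series table (4.37%), in Cy3 alone (5.04%), without SOD1G93A replicate 1 (7.69%) and on the 6 arrays (10.9%). Members lower without overlap numbered 2 on the 6 arrays (13.1%) and 0 to 1 with 1 array left out (5.38% to 9.02%). The cause was not tested. Over all genes 25 were called. The count was 6 with Agilent's processed signals, 6 with the deposited series table, 1 with median centring, 16 with no filter on dim probes, 418 with array weights and 233 on the 6 arrays. With 1 array left out it ranged from 3 to 179, being 3 without SOD1G93A replicate 4 or wild-type replicate 2 or 3, 4 without SOD1G93A replicate 3, 9 without SOD1G93A replicate 2 or wild-type replicate 1, 16 without wild-type replicate 4, and 179 when SOD1G93A replicate 1 was left out. With the replicate number as a block 1 gene was called. The block cannot move a difference in this balanced design, and the adjusted p was 0.255 for Spast (0.386) and 0.319 for Ttl (0.502). Same-numbered samples share only a number, and 0 of 4 SOD1G93A samples correlated best with the wild-type sample of its own number.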
